A study of Sus scrofa with 33 samples.

Results

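Mitochondrial ribosomal proteins are the protein parts of the ribosome that works inside mitochondria. Their genes were followed in the right ventricle of 11 pigs (Sus scrofa) through acute pulmonary banding. The genes were chosen by name: every gene whose single symbol in the array annotation begins with MRPL or MRPS and a number, which gave 58 of the 6765 genes that had a single symbol. A gene with several probe sets was represented by the one whose mean over the 33 arrays was highest. The rule itself used no measured response, but it was set with earlier results of these data known.

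The mitochondrial ribosome translates the few messages of mitochondrial DNA, which encode core subunits of the respiratory chain and of ATP synthase. Its proteins are all encoded in the nucleus, made in the cytosol and imported, and they assemble with RNA made in the mitochondrion into a large and a small subunit. Many descend from bacterial ribosomal proteins, whereas others exist only in mitochondria. The heart, which lives on oxidative phosphorylation, is a tissue in which inherited defects of this machinery are known to cause cardiomyopathy.

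By name, 36 of the genes were MRPL genes and 22 were MRPS genes. By the subunit in which the protein sits, 37 were counted to the large subunit and 20 to the small one. MRPS30 carries the name of the small subunit but its protein belongs to the large one. MRPS36, whose protein has been found in the oxoglutarate dehydrogenase complex, was counted to neither. Homologues of bacterial ribosomal proteins made up 33 of the genes, and 25 were specific to mitochondria.

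Each pig gave 3 biopsies of the free wall of the right ventricle: at baseline, after 120 min of pulmonary banding to induce right ventricular failure, and 60 min after that. All pigs were banded. After the biopsy at 120 min they were randomised to a modified Glenn shunt, which leads venous blood of the upper body past the right ventricle into the lung circulation (the shunt arm, 6 pigs), or to no shunt (the control arm, 5 pigs). No pigs without banding were sampled over the same hours, so every change includes all that elapsed between the biopsies. Each biopsy was hybridised to its own Affymetrix porcine array, and values are log2 signals, so that a difference of 1 is a doubling of the signal. The number of arrays limits the precision, and signals of different probe sets cannot be set against each other.

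The arrays were alike in level, with medians between 6.10 and 6.17. By their spiked-in control RNAs they fell into 3 sets, which held shunt pigs 1 to 4, shunt pigs 5 and 6, and the 5 control pigs. No set held both arms, so arm and array set cannot be told apart. The tissue label was borne out by the cardiomyocyte markers: 12 of 13 were measured, the lowest at 10.8 (RYR2), and their summed level per array, as a mean, stayed between 13.7 and 14.1 in all groups. In whole tissue, fewer cells of a type and less RNA per cell cannot be told apart.

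No detection calls were used. The means of the 58 genes over all arrays ran from 5.55 to 10.9, and none lay among the lowest 30% of all probe sets, although the dimmest, that of MRPS23, lay below the median of every array. At the median, a gene's signal ranked at percentile 88.2 of the probe sets.

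The comparison of the biopsy at 120 min with the baseline asked what the induction of right ventricular failure did to the right ventricle. After 120 min of banding, 20 of the 58 mitochondrial ribosomal protein genes had fallen, 1 had risen and 37 did not pass the test (limma with each pig as a block, two-sided, Benjamini-Hochberg adjusted p below 0.05 over 23999 probe sets). The share that fell, 34.5%, stood beside 20.8% of all 6765 genes, and 13.1% of all genes rose. The changes were small. They ran from -0.35 to 0.14 with a median of -0.13, against a median of -0.02 over all genes, and none reached 1.5-fold. Below 0 lay 50 of the 58 changes (86.2%), compared with 54.9% of those of all genes. All genes include many of low signal, whereas no member lay among the lowest 30% of probe sets. With that 30% left out, 36.2% of the members fell, beside 24.4% of the genes left, whose median change was -0.04.

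**Figure D1:**
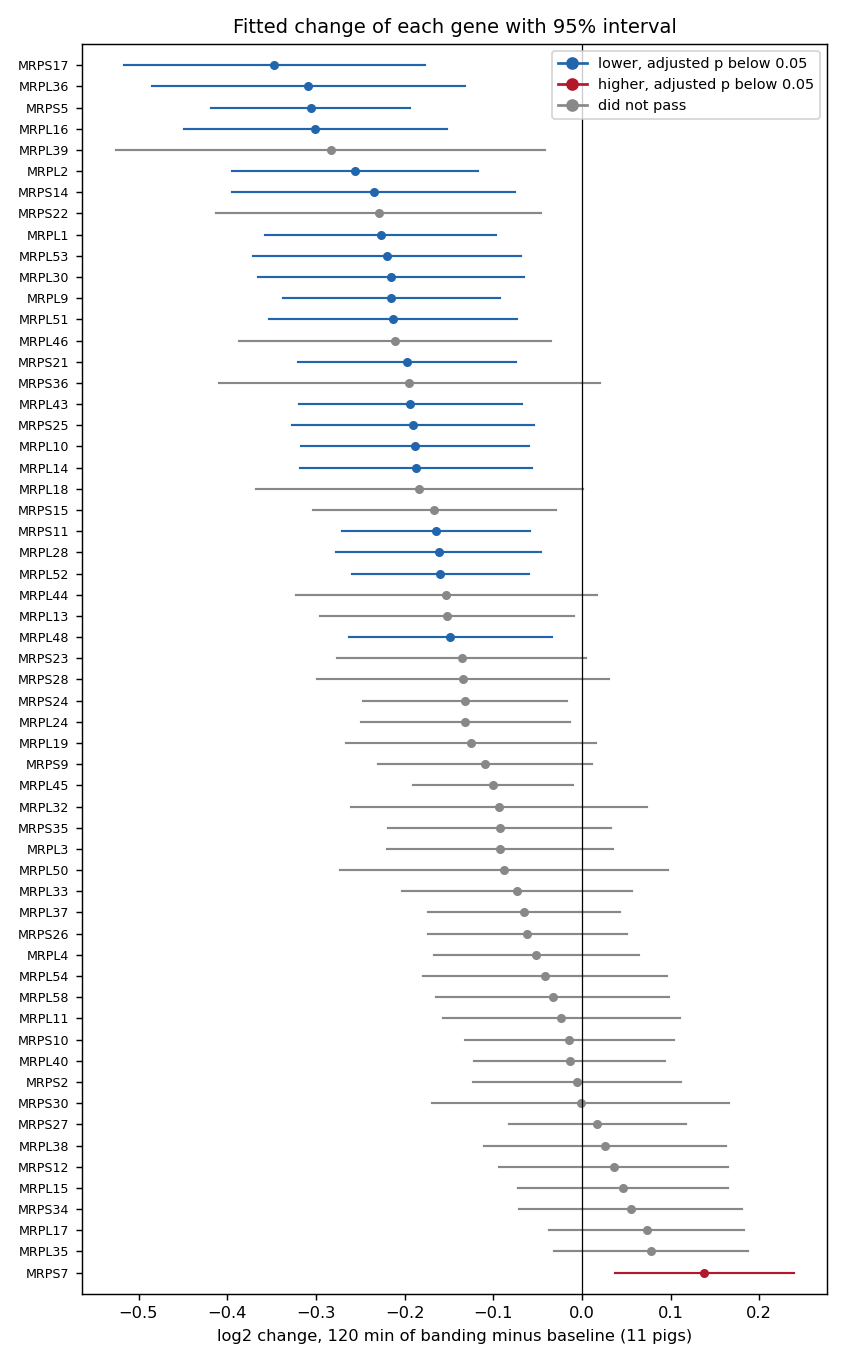
Fitted log2 change of each of the 58 genes from baseline to 120 min of banding, as the mean over 11 pigs (points) with its 95% interval (lines); blue marks falls and red the rise with an adjusted p below 0.05. Most points lie left of 0, from -0.35 for MRPS17 to 0.14 for MRPS7.

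The falls came from both subunits. Of the large subunit 14 of 37 genes fell and 0 rose, with a median change of -0.15. Of the small subunit 6 of 20 fell and 1 rose, with a median of -0.13. Among homologues of bacterial proteins 14 of 33 fell, and among mitochondria-specific proteins 6 of 25, with medians of -0.15 and -0.13. The difference between these classes was not tested.

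Among the small subunit genes the smallest p belonged to MRPS5, a homologue of a bacterial protein near the entry of the messenger channel. In control pigs 1 to 5 its signal was 8.24, 7.95, 8.34, 8.07 and 8.36 at baseline and 7.86, 7.78, 8.01, 8.09 and 8.19 at 120 min. In the shunt arm the lowest, median and highest values were 7.98, 8.18 and 8.42 at baseline and 7.74, 7.77 and 8.001 at 120 min. Only control pig 4 did not show a lower value after banding, and the groups overlapped by the margin between the lowest baseline value and the highest later one. MRPS5 fell by 0.31 ± 0.05 (SE; 1.24-fold lower; limma adjusted p = 0.000128; lower in 10 of 11 pigs).

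MRPS17, another homologue of a bacterial small subunit protein, had the lowest point estimate of all members. Its signal was 9.10, 9.20, 9.10, 9.12 and 9.22 in control pigs 1 to 5 at baseline and 8.85, 9.08, 8.29, 9.17 and 8.94 at 120 min. Shunt pigs ranged from 9.03 to 9.50 around a median of 9.34 at baseline, and from 8.30 to 9.21 around a median of 9.01 at 120 min. The spread was wider at 120 min, with shunt pig 1 at 8.30 and control pig 3 at 8.29, and the groups overlapped. MRPS17 fell by 0.35 ± 0.08 (SE; 1.27-fold lower; limma adjusted p = 0.00236; lower in 10 of 11 pigs).

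MRPS21 and MRPS11, both with bacterial counterparts, and MRPS14 and MRPS25 made up the rest of the small subunit falls. MRPS21 changed by -0.20 ± 0.06 (SE, limma adjusted p = 0.0146) and MRPS11 by -0.16 ± 0.05 (SE, limma adjusted p = 0.0177), each lower in 10 of 11 pigs. For MRPS14 the change was -0.23 ± 0.08 (SE, limma adjusted p = 0.0239, lower in 8 of 11 pigs). MRPS25 is specific to mitochondria and changed by -0.19 ± 0.07 (SE, limma adjusted p = 0.0316, lower in 9 of 11 pigs).

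In the large subunit the leading fall was that of MRPL16, whose bacterial counterpart lies close to the peptidyl transferase centre. Control pigs 1 to 5 had 9.71, 9.62, 9.61, 9.63 and 9.89 at baseline and 9.31, 9.62, 9.27, 9.75 and 9.55 at 120 min. Among shunt pigs the lowest, median and highest values were 9.48, 9.70 and 9.83 at baseline and 9.04, 9.23 and 9.71 at 120 min. Control pigs 2 and 4 did not fall, all 6 shunt pigs did, and the groups overlapped. MRPL16 fell by 0.30 ± 0.07 (SE; 1.23-fold lower; limma adjusted p = 0.00257; lower in 9 of 11 pigs).

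MRPL2, the counterpart of one of the main RNA-binding proteins of the bacterial large subunit, changed by -0.26 ± 0.07 (SE, limma adjusted p = 0.00543) and was lower in 10 of 11 pigs. Its only pig with a higher value was control pig 5, at 9.89 before and 9.94 after. The other probe set of MRPL2 had -0.21 ± 0.10 and did not pass (SE, limma adjusted p = 0.112). MRPL1, the protein of the mobile stalk beside the exit site, changed by -0.23 ± 0.06 (SE, limma adjusted p = 0.00814), also in 10 of 11 pigs. MRPL9 changed by -0.21 ± 0.06 (SE, limma adjusted p = 0.00768, 9 of 11 pigs). MRPL36, which encodes a very small zinc-binding protein, changed by -0.31 ± 0.09 (SE, limma adjusted p = 0.00799), but with a wide spread between pigs, from -0.97 in shunt pig 3 to 0.17 in control pig 2, and in 8 of 11 pigs.

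MRPL52, specific to mitochondria, was lower in every pig, the only member of which this held, against 6.78% of all genes; 0 members were higher in every pig, against 5.16% of all genes. Control pigs 1 to 5 had 9.75, 9.61, 9.53, 9.72 and 9.71 at baseline and 9.45, 9.47, 9.48, 9.49 and 9.68 at 120 min. Shunt pigs ranged from 9.48 to 9.69 (median 9.56) at baseline and from 9.28 to 9.50 (median 9.41) at 120 min. The step was small in each pig, from -0.30 to -0.03, and the groups overlapped. The fitted change was -0.16 ± 0.05 (SE, limma adjusted p = 0.0145). The other 2 probe sets of MRPL52 had -0.11 and -0.01 and did not pass (limma adjusted p = 0.264 and 0.933). Both were dim, with mean signals of 4.98 and 3.83, below the array medians of 6.10 to 6.17.

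**Figure D2:**
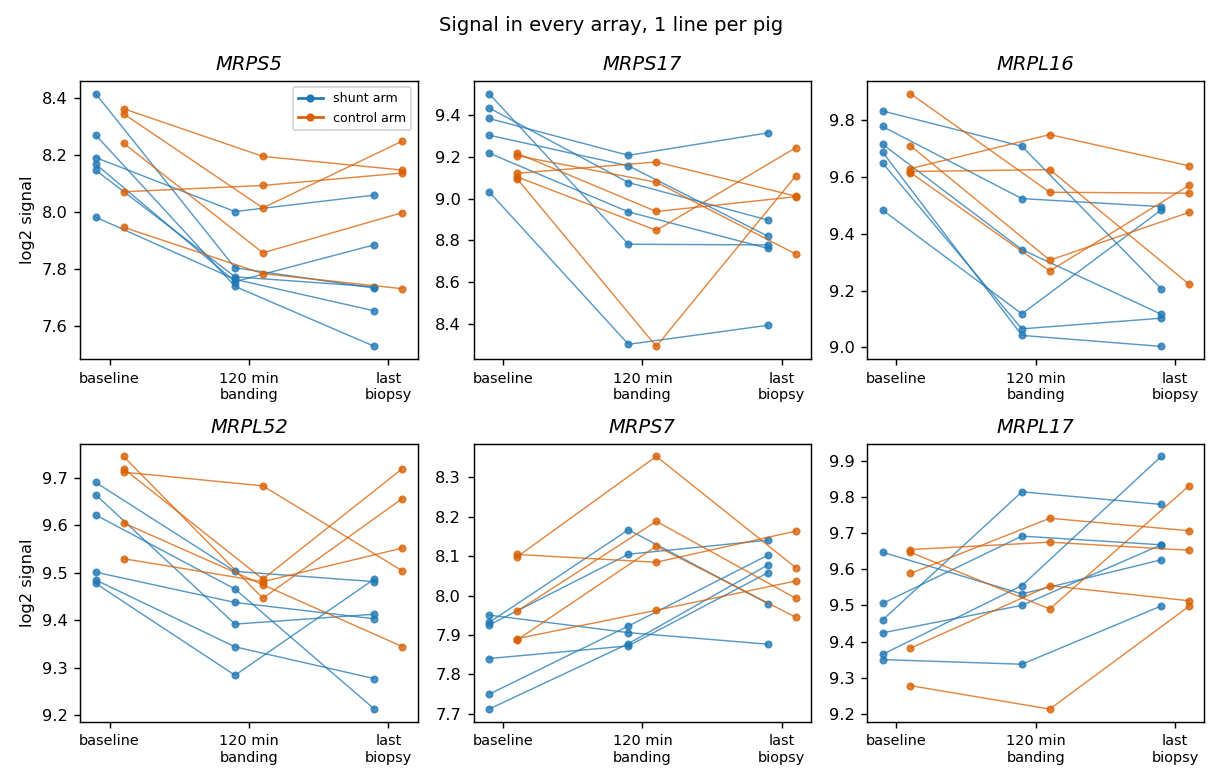
Log2 signal of 6 genes on every array, with 1 line per pig over the 3 biopsies (blue, 6 shunt pigs; orange, 5 control pigs) and a separate scale for each gene. MRPS5, MRPS17, MRPL16 and MRPL52 are lower at 120 min in 9 to 11 of 11 pigs; MRPS7 is higher in 9 of 11.

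The remaining large subunit falls were of similar size. MRPL43 and MRPL51, both specific to mitochondria, changed by -0.19 ± 0.06 and -0.21 ± 0.07 (SE, limma adjusted p = 0.0183 and 0.0196). A further probe set of MRPL43 had -0.04 and did not pass (limma adjusted p = 0.744). MRPL10, the base of the stalk that recruits translation factors, MRPL14, which lies at the contact with the small subunit, MRPL28, MRPL30, MRPL48 and MRPL53 changed by between -0.22 and -0.15, with limma adjusted p between 0.0246 and 0.0472.

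The single rise was that of MRPS7, the counterpart of a bacterial protein of the head of the small subunit. Control pigs 1 to 5 had 8.10, 7.89, 7.96, 7.89 and 8.10 at baseline and 8.08, 8.13, 8.19, 7.96 and 8.35 at 120 min. Shunt pigs had 7.71, 7.88 and 7.95 (lowest, median, highest) at baseline and 7.87, 7.91 and 8.17 at 120 min. The signal was higher in 9 of 11 pigs, with shunt pig 1 and control pig 1 slightly lower, and the groups overlapped. MRPS7 rose by 0.14 ± 0.05 (SE, limma adjusted p = 0.0356). When each pig was left out in turn this call passed in 4 of 11 fits, with limma adjusted p from 0.0211 to 0.0814.

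A few genes are given whatever their values. MRPS22, MRPL3 and MRPL44 are known from inherited disease with cardiomyopathy. MRPS22 had a change of -0.23 ± 0.09 that missed the threshold (SE, limma adjusted p = 0.0548), with 10 of 11 pigs lower. MRPL44 had -0.15 ± 0.08 and MRPL3 -0.09 ± 0.06, neither of which passed (SE, limma adjusted p = 0.172 and 0.276). MRPS12, whose bacterial counterpart takes part in decoding, had 0.04 ± 0.06 (SE, limma adjusted p = 0.704). By mean signal the highest probe sets were those of MRPS15, MRPL51 and MRPS21 and the lowest those of MRPS23, MRPL4 and MRPS30. Of these, MRPS15 (-0.17 ± 0.07), MRPS23 (-0.14 ± 0.07) and MRPL4 (-0.05 ± 0.06) did not pass (SE, limma adjusted p = 0.0619, 0.141 and 0.522).

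MRPS30 averaged no change over the 11 pigs, at -0.00 ± 0.08 (SE, limma adjusted p = 0.994), and the pigs of the later arms went apart. All 6 shunt pigs had a higher signal at 120 min, by 0.05 to 0.27. In control pigs 1 to 5 the changes were 0.01, -0.16, -0.32, -0.00 and -0.39. The difference between the arms, shunt minus control, was 0.31 ± 0.16 and did not pass (SE, limma adjusted p = 0.753).

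The fall was uneven between pigs. As the median over the 58 genes, the change from baseline to 120 min was -0.36, -0.01, -0.34, 0.01, -0.12 and -0.10 in shunt pigs 1 to 6. It was -0.24, 0.04, -0.25, 0.10 and -0.13 in control pigs 1 to 5. The mean was -0.13 ± 0.15 (SD, n = 11 pigs), with 8 of 11 pigs below 0. Shunt pigs 1 and 3 and control pigs 1 and 3 had the lowest medians, and shunt pig 4 and control pigs 2 and 4 had medians above 0. Of the 58 genes, 56, 32, 53, 28, 48 and 43 were lower in shunt pigs 1 to 6, and 56, 21, 48, 19 and 44 in control pigs 1 to 5. In at least 9 of the 11 pigs, 26 of the 58 genes (44.8%) were lower, compared with 26.4% of all genes. In all 11 pigs only MRPL52 was lower, a smaller share of the members than the 6.78% of all genes.

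**Figure D3:**
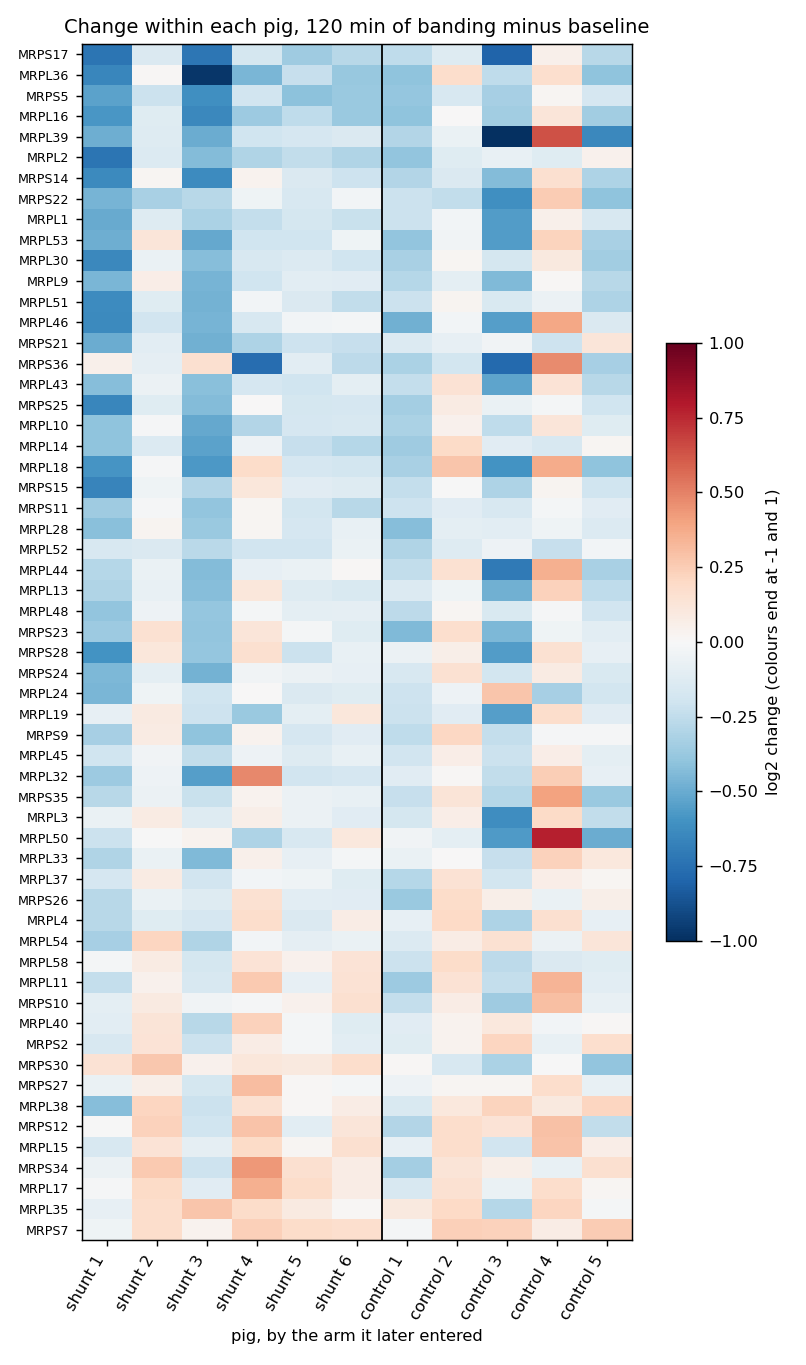
Log2 change from baseline to 120 min of banding in each of 11 pigs (columns) for each of the 58 genes (rows, ordered by fitted change), with blue for lower and red for higher. Shunt pigs 1 and 3 and control pigs 1 and 3 are blue over most rows, with 48 to 56 genes lower, and control pigs 2 and 4 are red over many.

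Other gene groups of the same pigs are given beside this spread. In shunt pigs 1 to 6 the median change of 58 nuclear genes of the respiratory chain and ATP synthase was -0.47, -0.05, -0.37, -0.07, -0.09 and -0.12, and in control pigs 1 to 5 it was -0.16, 0.03, -0.10, 0.03 and -0.09. The lowest values were again those of shunt pigs 1 and 3 and control pig 1. The median over all genes was also lowest there, at -0.08 in shunt pigs 1 and 3 and in control pig 1. It lay between -0.03 and 0.03 in every other pig. What part this shift of all genes had in the change of the members was not tested. The median of the cardiomyocyte markers was -0.14 in shunt pig 1, -0.13 in shunt pig 3 and between -0.06 and 0.05 in every other pig. Of these markers 1 of 12 fell and 0 rose, with a median change of -0.05. The summed level of 6 neutrophil and monocyte markers, as a mean per array, was 4.89 to 5.37 at baseline and 5.31 to 6.52 at 120 min among shunt pigs, and 5.03 to 5.31 and 5.08 to 5.37 among control pigs. In that list 3 of 6 rose and 0 fell, and ITGAM, an integrin of these cells, was the lowest at a mean of 4.12. Of 4 macrophage markers 2 rose and 0 fell, with levels of 7.20 to 7.55 at baseline and 7.49 to 8.12 at 120 min among shunt pigs and 6.92 to 7.57 and 7.36 to 7.60 among control pigs. Of 5 smooth muscle and pericyte markers 2 rose and 0 fell. The part of these lists in the change of the mitochondrial ribosomal genes was not tested. RNA quality, as the 3' minus 5' signal of GAPDH, had group means between 0.76 and 0.86, with overlapping ranges.

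The count of falls depended on single pigs. Without shunt pig 3 it was 8 (13.8%, beside 16.5% of all genes), and without shunt pig 1 or control pig 1 it was 13 each time (22.4%, beside 18.4% and 17.8% of all genes). Without shunt pigs 5 and 6, the smallest array set, it was 10 (17.2%, beside 15.8% of all genes), and within shunt pigs 1 to 4, shunt pigs 5 and 6, or the control pigs alone 0 members fell, beside 5.57%, 0.488% and 4.04% of all genes, with median changes of -0.17, -0.10 and -0.11. The falls of MRPS5, MRPS17, MRPL16, MRPL2, MRPL9, MRPL36, MRPL1 and MRPL52 passed whichever single pig was left out. MRPS21, MRPS11 and MRPL51 passed in 10 of 11 such fits, MRPL43 in 9, MRPL14 in 8 and MRPS25 in 5. The falls of MRPS14, MRPL10, MRPL28, MRPL30, MRPL48 and MRPL53 were not followed in these fits.

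The machinery that works with the mitochondrial ribosome was read from lists of its other genes. Of 4 mitochondrial ribosomal proteins with other names, CHCHD1 changed by -0.26 ± 0.06 (SE, limma adjusted p = 0.00285) and DAP3 had -0.19 ± 0.08 and did not pass (SE, limma adjusted p = 0.0631). The counts below stand beside the 20.8% of all genes that fell at 120 min. Of 18 assembly factors 5 fell (27.8%) and 0 rose, with a median of -0.05. They were led by RPUSD3, a pseudouridine synthase of the large ribosomal RNA (-0.37 ± 0.07), GTPBP10, a GTPase of large subunit assembly (-0.38 ± 0.07), and MRM2, a methyltransferase of the same RNA (-0.32 ± 0.07; SE, limma adjusted p = 0.000149, 0.00028 and 0.00135). Of 11 translation factors 6 fell (54.5%) and 0 rose, with a median of -0.18 and all 11 changes below 0. MTFMT, which formylates the initiator methionyl-tRNA, changed by -0.65 ± 0.11, and MTRF1, a release factor, by -0.44 ± 0.07 (SE, limma adjusted p = 5.3e-05 and 7.88e-05). TSFM, an elongation factor, and TACO1, an activator of the translation of a cytochrome oxidase subunit, changed by -0.27 ± 0.07 and -0.26 ± 0.07 (SE, limma adjusted p = 0.00444 and 0.00978).

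Of 9 genes that charge mitochondrial tRNAs 2 fell (22.2%), IARS2 (-0.24 ± 0.07) and GATC (-0.23 ± 0.07), and 0 rose, with a median of -0.15 (SE, limma adjusted p = 0.00909 and 0.02). Genes that express or maintain mitochondrial DNA were mixed. Of 12, MTPAP, the mitochondrial poly(A) polymerase, rose by 0.27 ± 0.07, and TRMT10C, a subunit of mitochondrial RNase P, and TEFM, a transcription elongation factor, fell by 0.34 ± 0.09 and 0.37 ± 0.13 (SE, limma adjusted p = 0.00393, 0.00651 and 0.036). Of 4 nuclear regulators known to act on genes for mitochondria, MYC rose by 2.30 ± 0.21 and the coactivator PPRC1 by 0.85 ± 0.11, both in all 11 pigs, and YY1 fell by 0.22 ± 0.05, also in all 11 pigs (SE, limma adjusted p = 2.56e-08, 4.55e-06 and 0.000652). PPARGC1A had -0.12 ± 0.18 and did not pass (SE, limma adjusted p = 0.676).

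Of the 62 genes of the cytosolic ribosome 4 fell (6.45%) and 4 rose, with a median of -0.05. Of the 58 respiratory chain and ATP synthase genes 12 fell (20.7%, the share over all genes being 20.8%) and 0 rose, with a median of -0.13 and all 58 changes below 0. The mitochondrial ribosomal genes thus had the same median to 2 decimals as the respiratory chain genes, with a wider spread among genes. The lists lay at unlike signal levels. On the baseline array of shunt pig 1, for example, their medians were 9.10 (mitochondrial ribosome), 12.2 (respiratory chain) and 13.0 (cytosolic ribosome). The differences between the lists, and the part of signal level in them, were not tested.

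**Figure D4:**
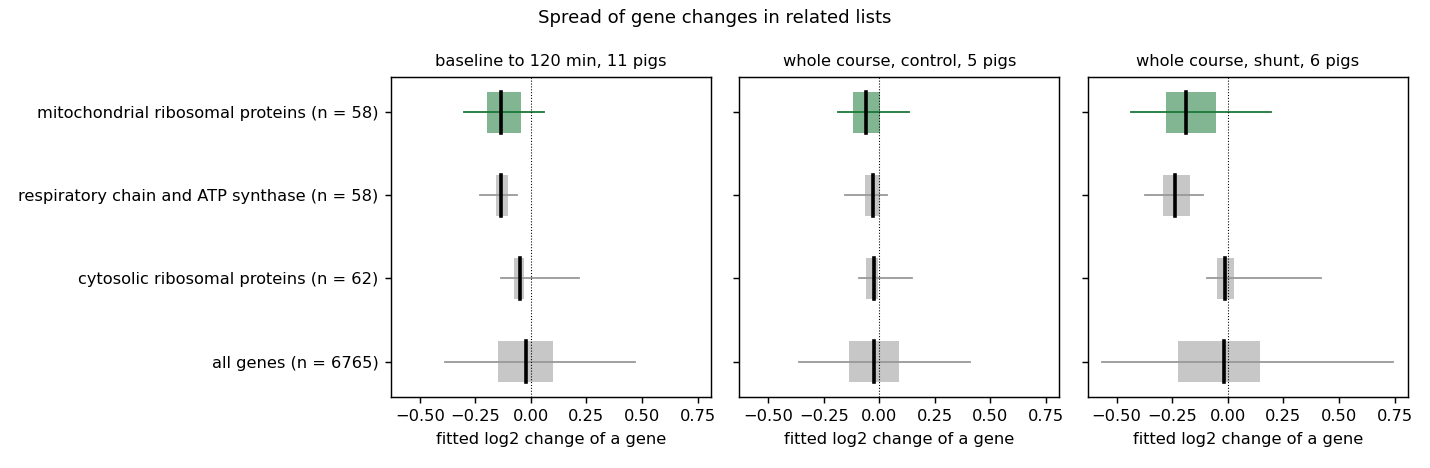
Spread of fitted log2 changes over the genes of 4 lists in 3 comparisons: boxes span the 25th to 75th percentile, thin lines the 5th to 95th, and black bars mark medians. In the shunt arm over the whole course the median is -0.19 for the mitochondrial ribosomal genes, -0.24 for the respiratory chain genes and -0.01 for the cytosolic ribosomal genes.

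Before the shunt, both arms had had the same procedure. At baseline 0 of the 58 genes differed between the arms (beside 0.0148% of all genes higher and 0.0296% lower in the shunt arm), and 2 had an unadjusted p below 0.05 in limma. The smallest p belonged to MRPL1, with 9.41 ± 0.05 among shunt pigs (SD, n = 6) against 9.16 ± 0.12 among control pigs (SD, n = 5; limma adjusted p = 0.224). Its baseline values ran from 9.36 to 9.47 in shunt pigs and from 9.05 to 9.33 in control pigs. MRPL1 was picked by its p among the 58, and ranges that lie apart were not counted over all genes. MRPS34 (-0.22 ± 0.08, shunt minus control) and MRPS26 (-0.19 ± 0.09) came next and did not pass (SE, limma adjusted p = 0.307 and 0.451). In the response to 120 min of banding 0 genes differed between the arms, 0% of all genes did, and 0 members had an unadjusted p below 0.05 in limma. The smallest p there belonged to MRPS21, at -0.24 ± 0.12 (SE, limma adjusted p = 0.741), ahead of MRPS30, given above, and MRPL36, at -0.30 ± 0.17 (SE, limma adjusted p = 0.773).

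The comparison of the last biopsy with that at 120 min asked what the shunt, or a further 60 min of banding without it, did. In neither arm did a mitochondrial ribosomal protein gene pass, nor did any of the 6765 genes (0%), and 0 members had an unadjusted p below 0.05 in limma. In the control arm 40 of 58 changes lay above 0, with a median of 0.05 and a range from -0.10 to 0.22. In the shunt arm 36 of 58 lay below 0, with a median of -0.03 and a range from -0.12 to 0.20. The shares of all genes above and below 0 in this step are not given, so these counts have no background beside them. The smallest p in the control arm belonged to MRPL35 (0.15 ± 0.08), MRPL58, a protein with peptidyl-tRNA hydrolase activity (0.17 ± 0.09), and MRPL50 (0.22 ± 0.13; SE, limma adjusted p = 1.00 for each). In the shunt arm it belonged to MRPL45, which lies at the exit of the nascent chain (-0.12 ± 0.06), MRPL50 (0.20 ± 0.12) and MRPL17 (0.12 ± 0.07; SE, limma adjusted p = 0.58, 0.656 and 0.656).

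The arms were also compared in this late change. Again 0 members passed (0% of all genes), and 0 had an unadjusted p below 0.05 in limma, with a median difference of -0.06 (shunt minus control). The smallest p belonged to MRPS7 (0.16 ± 0.10), MRPL1 (-0.21 ± 0.13) and MRPL3 (-0.20 ± 0.12), all with a limma adjusted p of 1.00. The control pigs went apart in these 60 min. Their member medians changed by 0.22, -0.21, 0.28, -0.08 and -0.03 in pigs 1 to 5, against -0.05, -0.10, -0.00, 0.06, -0.04 and -0.06 in shunt pigs 1 to 6. Among control pigs, pigs 1 and 3 had the lowest change up to 120 min and the highest afterwards, and the biopsy at 120 min enters both changes. As arm means this was 0.04 ± 0.21 in control and -0.03 ± 0.05 in shunt pigs (SD, n = 5 and 6).

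**Figure D5:**
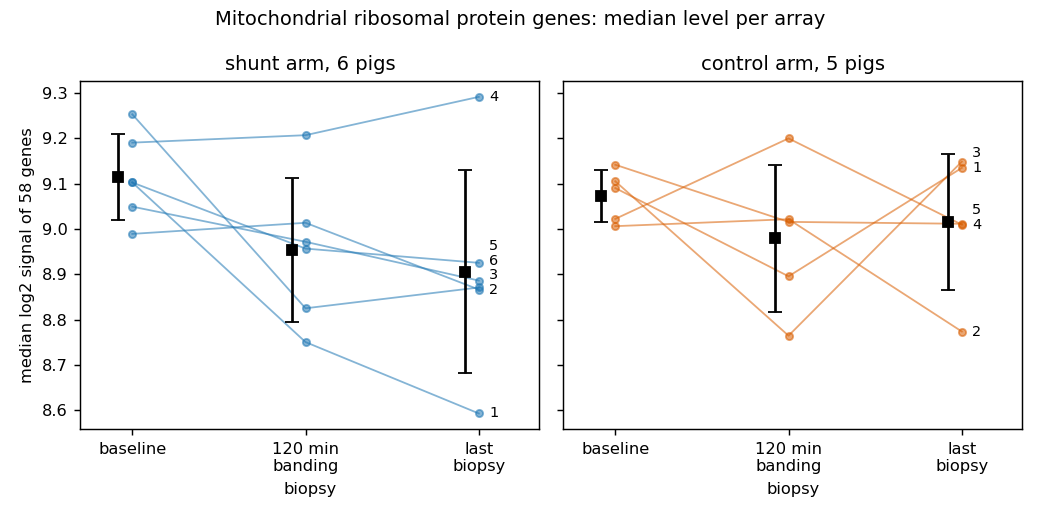
Median log2 signal of the 58 genes on each array, with 1 numbered line per pig over the 3 biopsies in the shunt arm (left, 6 pigs) and the control arm (right, 5 pigs); black squares with bars are the mean ± SD of the pigs. The shunt arm mean goes from 9.11 to 8.95 and 8.91, and the control arm mean from 9.07 to 8.98 and 9.02.

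From baseline to the last biopsy the arms showed different counts. In the shunt arm 20 of 58 genes fell (34.5%, beside 23.6% of all genes), 3 rose (beside 16.7% of all genes) and 35 did not pass. The median change was -0.19, against -0.02 over all genes, and the range was -0.48 to 0.26, with 47 of 58 below 0. With the lowest 30% of probe sets left out, 36.2% of the members fell in the shunt arm, beside 27.7% of the genes left. In the control arm 0 members passed, beside 5.59% of all genes lower and 4.39% higher, and 1 had an unadjusted p below 0.05 in limma. There the median was -0.06, against -0.02 over all genes, the range was -0.21 to 0.19, and 43 of 58 changes lay below 0. The share of all genes below 0 over the whole course is not given for either arm. The baseline biopsies are the same as those of the comparison at 120 min, so these values are no independent support for it.

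The difference between the arms over the whole course was tested for each gene, and 0 of 58 passed (0.0148% of all genes were higher and 0% lower in the shunt arm). Unadjusted, 7 members had p below 0.05 in limma, and 49 of 58 differences lay below 0, with a median of -0.10. The shares of all genes by these measures are not given. These counts therefore have no background beside them and cannot be read as particular to the members. The smallest p belonged to MRPS5 (-0.29 ± 0.11), MRPS21 (-0.30 ± 0.12) and MRPL1 (-0.29 ± 0.13; SE, limma adjusted p = 0.275, 0.311 and 0.354). MRPL1 was also the member with the smallest p at baseline, where it did not pass.

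MRPS5 again had the smallest p in the shunt arm. Its signal at the last biopsy was 7.53, 7.73 and 8.06 (lowest, median, highest), against 7.98, 8.18 and 8.42 at baseline, and every shunt pig was lower. The change was -0.43 ± 0.07 (SE; 1.35-fold lower; limma adjusted p = 6.97e-05). Control pigs 1 to 5 stood at 7.997, 7.73, 8.25, 8.14 and 8.15 at the last biopsy, 4 of 5 below their own baseline.

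MRPL2 at the last biopsy of the shunt arm was 8.64, 9.44 and 9.62 (lowest, median, highest), against 9.45, 9.77 and 9.89 at baseline. It changed by -0.45 ± 0.09 (SE, limma adjusted p = 0.000423) and was lower in all 6 pigs, with -1.11 in shunt pig 1 and -0.18 to -0.49 in the others. On the other probe set of MRPL2 the change was -0.27 and did not pass (limma adjusted p = 0.129). MRPL16 changed by -0.46 ± 0.10, in 5 of 6 pigs, and MRPS17 by -0.48 ± 0.11, in 6 of 6 (SE, limma adjusted p = 0.000762 and 0.00149). MRPS17 in the control arm was 9.24, 8.74, 9.11, 9.01 and 9.01 at the end, within or below its baseline range of 9.10 to 9.22 apart from control pig 1.

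MRPS21 (-0.37 ± 0.08), MRPL1 (-0.36 ± 0.09) and MRPL45 (-0.24 ± 0.06) were lower in 6 of 6 shunt pigs, as was MRPL14 (-0.34 ± 0.09), and MRPL51 (-0.38 ± 0.09) in 5 of 6 (SE, limma adjusted p = 0.000847, 0.00197, 0.00257, 0.00373 and 0.00222). In all, 7 of the 58 members were lower in every shunt pig, a smaller share than the 17.4% of all genes. MRPS25, MRPS11 and MRPL9 changed by -0.32 ± 0.09, -0.24 ± 0.07 and -0.27 ± 0.08 (SE, limma adjusted p = 0.00689, 0.00961 and 0.0123). By subunit, 13 of 37 large subunit genes fell and 1 rose, and 7 of 20 small subunit genes fell and 2 rose. Of the bacterial homologues 14 of 33 fell and 2 rose (median -0.23), and of the mitochondria-specific genes 6 of 25 fell and 1 rose (median -0.15).

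The 3 rises in the shunt arm were those of MRPL17, MRPS34 and MRPS7, each higher in 5 of 6 pigs. MRPL17, with a bacterial counterpart in the large subunit, had 9.35, 9.44 and 9.65 at baseline (lowest, median, highest) and 9.50, 9.67 and 9.91 at the last biopsy. It rose by 0.23 ± 0.07 (SE, limma adjusted p = 0.014). In control pigs 1 to 5 MRPL17 went from 9.65, 9.59, 9.28, 9.38 and 9.66 to 9.83, 9.71, 9.50, 9.51 and 9.65, so that 4 of 5 were higher. MRPS34, specific to mitochondria, rose by 0.24 ± 0.08 and MRPS7 by 0.19 ± 0.07 in the shunt arm (SE, limma adjusted p = 0.0268 and 0.0313). In the control arm MRPS34 changed by 0.13 ± 0.09, with 5 of 5 pigs higher, and MRPS7 by 0.05 ± 0.07, with 4 of 5. Neither passed there (SE, limma adjusted p = 0.432 and 0.746). At baseline MRPS34 had a difference of -0.22 ± 0.08, shunt minus control, which did not pass (SE, limma adjusted p = 0.307). With each shunt pig left out in turn, MRPL17 passed in 5 of 6 fits, MRPS34 in 3 and MRPS7 in 2, with limma adjusted p up to 0.0987, 0.173 and 0.141. Without shunt pig 2 none of the 3 passed, and without shunt pig 6 only MRPL17 did.

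MRPL35, a large subunit protein with a bacterial counterpart, was the only member higher in all 6 shunt pigs, beside 13% of all genes, although its change of 0.16 ± 0.07 did not pass (SE, limma adjusted p = 0.0883). It also had the smallest p over the whole course in the control arm, with 0.19 ± 0.08 and 5 of 5 pigs higher, again without passing (SE, limma adjusted p = 0.149). Its control values were 8.49, 8.49, 8.63, 8.50 and 8.61 at baseline and 8.85, 8.60, 8.77, 8.76 and 8.69 at the end. MRPL9 (-0.18 ± 0.09) and MRPS23 (-0.20 ± 0.10) were lower in 5 of 5 control pigs and did not pass (SE, limma adjusted p = 0.244 and 0.27). MRPL2, MRPL4, MRPL28, MRPL45 and MRPL53 were also lower in 5 of 5 control pigs without passing. The share of all genes lower in every control pig is not given.

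As a median over the members, the whole-course change was -0.36, -0.11, -0.31, 0.07, -0.15 and -0.12 in shunt pigs 1 to 6 and 0.01, -0.17, 0.01, 0.01 and -0.15 in control pigs 1 to 5. The arm means were -0.16 ± 0.15 and -0.06 ± 0.09 (SD, n = 6 and 5), which overlap. The same means were -0.23 ± 0.25 and -0.04 ± 0.07 for the respiratory chain genes and -0.13 ± 0.08 and -0.02 ± 0.02 for the cardiomyocyte markers, of which 3 of 12 fell and 0 rose in the shunt arm. The neutrophil and monocyte markers, as a mean per array, reached 5.42 to 6.97 at the last biopsy of shunt pigs and 5.33 to 5.68 for control pigs, and 4 of 6 rose in the shunt arm. Smooth muscle and pericyte markers lay between 8.99 and 9.74 at baseline and between 9.59 and 10.9 at the last biopsy among shunt pigs, where 3 of 5 rose and 0 fell with a median change of 0.56. Among control pigs they lay between 9.47 and 9.86 and then between 9.75 and 9.9998. Of the macrophage markers 2 of 4 rose and 0 fell in the shunt arm. The part of these lists in the values of the mitochondrial ribosomal genes was not tested. Without shunt pig 1 the falls in the shunt arm numbered 9 (15.5%, beside 17.9% of all genes), without shunt pig 3 12 (20.7%, beside 18.5%), without shunt pigs 5 and 6 13 (22.4%, beside 19%), and in a fit to the compared arrays alone 8 (13.8%, beside 16%).

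The related lists over the whole course in the shunt arm are given beside these, where 23.6% of all genes fell and 16.7% rose. Of the 11 translation factors 6 fell and 0 rose (median -0.32), with MTFMT at -0.93 ± 0.14 and MTRF1 at -0.67 ± 0.10 (SE, limma adjusted p = 2.29e-05 and 1.49e-05). Of 18 assembly factors 7 fell and 2 rose, and of 9 genes for charging tRNAs 4 fell and 1 rose. Of the 12 genes for mitochondrial DNA expression 3 rose and 0 fell, led by MTPAP at 0.54 ± 0.09 (SE, limma adjusted p = 6.94e-05). CHCHD1 and DAP3 both fell in the shunt arm, by 0.36 ± 0.08 and 0.29 ± 0.10 (SE, limma adjusted p = 0.00174 and 0.0322). Of the respiratory chain genes 37 of 58 fell and 0 rose, and of the cytosolic ribosomal genes 1 of 62 fell and 5 rose. In the control arm 0 respiratory chain genes passed, 1 of 11 translation factors fell (MTFMT, -0.52 ± 0.16), and 1 of 18 assembly factors fell (RPUSD3, -0.47 ± 0.10; SE, limma adjusted p = 0.0392 and 0.00332).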

How the data were processed

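The values the authors deposited are on the log2 scale, 1 per probe set for each of 33 single-colour arrays, and were made with RMA, per the submitters' processing notes. The software and version behind RMA, and which arrays it took in 1 run, are not given in the sources. RMA makes arrays alike in distribution, so changes are relative to the bulk of probe sets. The values (2.21 to 15.2) were used as deposited. The table held 24123 probe sets; 23999 were tested after removal of 124 controls. Symbols came from the platform annotation: 10069 sets had a single symbol. The 58 genes had 77 probe sets between them, 14 genes more than 1, and 6 sets with several symbols were left out. By Entrez identifier 57 of the 58 matched a RefSeq entry, all with the same symbol. Positions are left out, since no genome came with the data.

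Changes were fitted in R 4.3.3 with limma 3.58.1 (lmFit, eBayes) on all arrays, with a coefficient per pig and, within each arm, for each later biopsy (18 residual degrees of freedom). The baseline comparison used the baseline arrays alone. Scripts were tested on simulated data. Pig is a block because the labels give the animal of each biopsy; after removal of group means, arrays of 1 pig correlated with a median r of 0.395, arrays of different pigs with -0.0524, and for 28 of 33 arrays the nearest array came from the same pig.

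The members, lists and alternatives were chosen with earlier results of these data known. Named were up to 12 members past the threshold per direction and comparison, otherwise the 3 with the smallest p, the 3 highest and 3 lowest in signal, and MRPL3, MRPL44, MRPS12, MRPS22 and MRPS30; MRPL12, MRPS16 and MRPS18A, on the same panel, were not among the single-symbol genes. The remaining falls at 120 min were named after their values were seen. Of each related list up to 4 genes with the smallest p at 120 min could be named. The alternatives were centring on array medians, quantile normalisation, no block for pig, a random block for pig (statmod 1.5.0), robust eBayes with an intensity trend, the lowest 30% of probe sets left out, the mean of a gene's probe sets, the compared arrays alone, array weights, each pig left out, and the array sets.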

Additional observations from a re-analysis of the deposited data

Results flagged for a closer look

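Single pigs far from the rest were looked for in the levels of 11 genes and of the member median in each of the 6 groups, and in the change of the member median in each arm. Of these 78 sets of values 2 stood out; chance gives about 1 in 20. MRPS5 at 120 min in the shunt arm had its highest value in shunt pig 4, at 8.001, with the other 5 pigs between 7.74 and 7.80. MRPL52 at 120 min in the control arm had its highest value in control pig 5, at 9.68, with the other 4 pigs between 9.45 and 9.49. No member's change differed between the arms by the test of that difference.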

How the results depend on the processing

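Every median change of the 58 genes kept its direction or moved by less than the spread between pigs under all alternatives run. That limit is wide. At 120 min the spread was 0.15 (SD) around a mean of -0.13, so it could not tell a kept median from one near 0. No named gene that passed changed sign. Counts of calls moved more. Without the pig block, 9 members fell (15.5%, beside 13.4% of all genes) and 0 rose at 120 min, and 12 fell (20.7%, beside 16.3%) and 1 rose over the whole course in the shunt arm, so the members' share came nearer to that of all genes. With pig as a random block the falls numbered 17 (29.3%, beside 18.9% of all genes) and 20 (34.5%, beside 21.7%). In the compared arrays alone 0 rose at 120 min, and 8 fell and 0 rose over the shunt course. Quantile normalisation gave 5 rises over the shunt course. The share of all genes that rose was not counted under the alternatives, so the counts of rises have no background beside them. Without shunt pigs 5 and 6 there were 10 falls and 0 rises at 120 min, and 13 falls and 0 rises over the shunt course; within each of the 3 array sets alone 0 fell and 0 rose. Leaving out each pig in turn gave 8 to 26 falls and 0 to 1 rises at 120 min, where the share of all genes that fell went from 16.5% to 21.9%, and 9 to 27 falls and 0 to 3 rises over the shunt course, where it went from 17.9% to 25.3%. These fits hold fewer arrays; beyond that the cause was not tested. The baseline comparison, with 1 array per pig, could take no block. Arrays give signal over background with no read depth, and arm, array set and time elapsed cannot be separated.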

Other observations

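MRPL39, MRPL50 and MRPS36 had the widest spread between pigs at 120 min, and control pigs 3 and 4 lay at opposite ends; they were picked after their values were seen. MRPL39, specific to the mitochondrial large subunit, changed by -1.13 in control pig 3 and by 0.64 in control pig 4, and by -0.49 to -0.13 in the shunt pigs. It was lower in 10 of 11 pigs without passing (-0.28 ± 0.12 SE, limma adjusted p = 0.0726). MRPL50, also of the large subunit, changed by -0.57 in control pig 3 and 0.78 in control pig 4, and MRPS36 by -0.77 and 0.47. The same pigs had -0.70 and 0.36 for MRPL44, -0.61 and 0.25 for MRPS22 and -0.62 and 0.19 for MRPL3.

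Probe sets of the same gene did not always go the same way. Of the 14 genes with several sets, 7 had all of them on 1 side of 0 at 120 min. Of the 19 sets that did not represent their gene, 2 fell and 0 rose at 120 min, and 2 fell and 1 rose over the whole course in the shunt arm. MRPL18, which did not pass on its representing set (-0.18, limma adjusted p = 0.129), fell on its other set (-0.28 ± 0.06 SE, limma adjusted p = 0.00171). MRPL33 had -0.16 on its representing set over the shunt course (limma adjusted p = 0.164) and rose by 0.46 on the other (limma adjusted p = 0.00671).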
